A study of Mus musculus with 4 samples.

Results

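The comparison set mouse pre-osteoclasts (pOC) against the bone marrow macrophages they were grown from (BMM), using the 2 arrays of a series of 4 that the labels assign to these stages. The animals were C57BL/6 mice aged 8 to 10 weeks with no genetic change named in the labels. BMM were marrow cells from the long bones of the leg kept for 3 days with M-CSF, the growth factor of macrophages, at 100 ng/ml. pOC were the mononuclear cells that stained for tartrate-resistant acid phosphatase (TRAP) after 2 more days with M-CSF and RANKL, each at 100 ng/ml. The other 2 arrays carried the multinucleated osteoclasts obtained after a further 2 days with both cytokines, either on a plastic plate (mOCp) or on dentin slices (mOCd). They entered here only in the choice of 1 probe set per gene and as later values of the genes described. Both groups therefore shared M-CSF throughout, and no array held cells kept that long without RANKL. RANKL and 2 further days in culture thus cannot be told apart. The labels do not say whether an RNA came from 1 animal or a pool, nor how pure the harvested TRAP-positive cells were.

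Osteoclasts are the cells that dissolve bone. They form when M-CSF keeps a myeloid precursor alive and RANKL, a TNF family ligand, binds its receptor RANK and switches on NF-kB, AP-1 factors and finally NFATc1. NFATc1 drives the genes for fusion, acid secretion and matrix digestion. The same precursors can become macrophages instead, which take up microbes and dead cells and present innate immune receptors, so the step from BMM to pOC is a lineage decision as well as a gain of function.

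Each array gave linear signal intensities with no replicate, so no test, standard error or p-value exists for any value below, and a difference is described by its size alone. Intensities under the array's median probe set (12.7 in BMM, 14.5 in pOC) were set to that median, called the floor, before a ratio was taken. A gene was called higher or lower in pOC when the floored values differed at least 2-fold and the brighter one reached the 75th percentile of its array (87.0 in BMM, 81.5 in pOC). Genes whose brighter value reached it are named eligible. A ratio with 1 array at the floor is a lower bound, written as at least N-fold, and intensities in the text are the values before flooring. Of 18193 genes with a usable probe set, 11853 lay above the floor on at least 1 of the 2 arrays, here called measured, and 7256 were eligible. Of the eligible genes 11.1% were called higher and 13.2% lower, and 3.16% and 4.73% were so at 4-fold. These shares are the background against which every gene list below is read. The split between the directions rests on the scaling: 809 higher and 955 lower as deposited became 589 and 1216 after scaling to the array medians, and 1034 and 789 after scaling to the spike-in controls. The first of these alternatives moves every log2 ratio by -0.19 and the second by 0.17, so shifts of that size have no sure direction. The median log2 ratio of the measured genes was 0.09.

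The labels were checked against marker genes. Of 11 osteoclast markers 10 were eligible and all 10 were called higher. The remaining one, the calcitonin receptor gene Calcr, read 1.8 in BMM and 15.5 in pOC, with 283 in mOCp and 305 in mOCd, so this marker of the multinucleated cell was not yet bright. Of 10 macrophage markers 7 were called lower and 0 higher; the M-CSF receptor gene Csf1r, the lysosomal sialomucin Cd68 and the integrin Itgam did not reach 2-fold. Among neutrophil markers 3 of 4 eligible were called higher: Lcn2 (BMM 8.4, pOC 121), S100a8 (BMM 146, pOC 380.1) and S100a9 (BMM 77.3, pOC 203). The granule genes Mpo (BMM 12.9, pOC 29.4) and Elane (BMM 8.6, pOC 41) and the receptor gene Cxcr2 (BMM 1.9, pOC 3) stayed dim on both arrays. The proteoglycan gene Dcn, a stromal marker, read 8.8 in BMM and 196 in pOC. Markers of T and NK cells, dendritic cells, erythroid cells, mast cells and endothelium had 0 eligible members. B cell markers had 1, the immunoglobulin gene Ighm (BMM 279.6, pOC 37.2, called lower), and megakaryocyte markers 1, Pf4 (BMM 2064, pOC 1477). In a culture of mixed cells, fewer cells of a type and less RNA per cell cannot be told apart, and the part of such cells in the results was not tested. The 3′ to 5′ signal of the array's actin controls, a guide to RNA integrity, was 0.16 in BMM and 0.29 in pOC on the log2 scale.

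**Figure D1:**
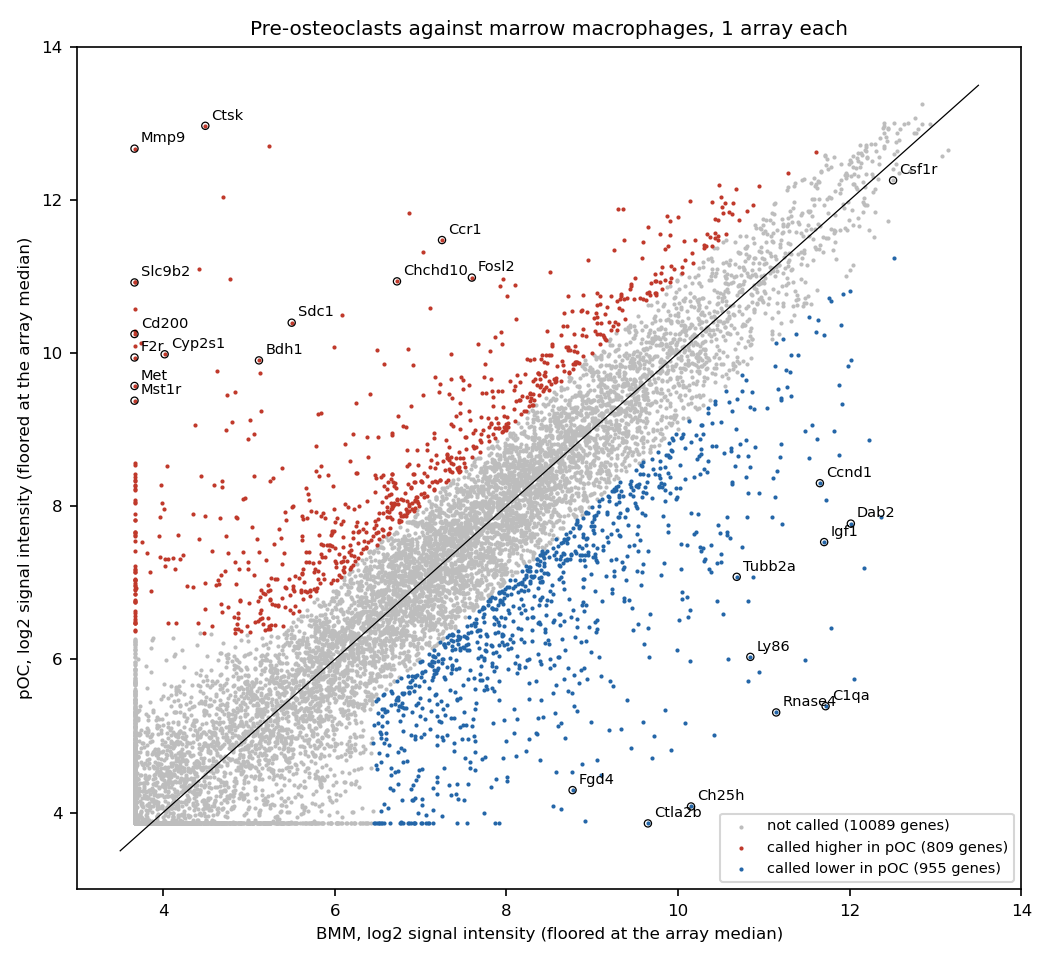
Log2 intensity in pOC (vertical axis) against BMM (horizontal axis) for the 11853 genes above the floor on at least 1 of the 2 arrays, 1 array each, with values under the floor drawn at the floor and the line marking equal intensity. Red points are the 809 genes called higher, blue points the 955 called lower and grey points the rest; Mst1r, Met and F2r lie on the BMM floor, and Ctla2b lies on the pOC floor.

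Beyond the familiar osteoclast genes, the genes with the largest ratios included receptors and surface proteins. Met, the receptor of hepatocyte growth factor, read 1.7 in BMM and 761 in pOC, which made it at least 59.9-fold higher. Its close relative Mst1r, which encodes the receptor RON for macrophage-stimulating protein, read 0.6 in BMM and 666 in pOC (at least 52.5-fold higher), and 1025 in mOCp and 2129.9 in mOCd. Both kinase receptors were therefore under the floor in BMM and bright in pOC. F2r, the thrombin receptor PAR1, was at least 77.6-fold higher, from 0.6 to 985, and its further probe set gave a log2 ratio of 5.14. The gene for the heparan sulfate proteoglycan syndecan-1, Sdc1, read 45.2 in BMM and 1349.9 in pOC (29.9-fold higher), with further probe sets between 3.65 and 5.45. Cd200, a surface ligand that restrains myeloid cells through its receptor, read 6.5 in BMM and 1218 in pOC and was at least 95.9-fold higher. The receptor gene Cd200r1 was 3.16-fold lower (BMM 229, pOC 72.4). Ligand and receptor differed in opposite directions.

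Secretory and metabolic genes were among the same group. Cpe, carboxypeptidase E, which trims prohormones, read 1.1 in BMM and 381 in pOC, followed by 2645 in mOCp and 2295 in mOCd. Spns2, the exporter of sphingosine 1-phosphate, read 9.5 in BMM and 335 in pOC (at least 26.4-fold higher), and Sphk1, a kinase that makes that lipid, 8.6 in BMM and 89 in pOC (at least 7.01-fold higher). The receptor genes S1pr1 and S1pr2 were 5.37-fold lower and 3.36-fold lower. Cyp2s1, a cytochrome P450, was 62.6-fold higher (BMM 16.2, pOC 1014). Bdh1, which interconverts the ketone bodies acetoacetate and 3-hydroxybutyrate in mitochondria, was 27.6-fold higher (BMM 34.7, pOC 959.6) and stood at 2549 in mOCp and 2391 in mOCd. Coq8a, a kinase-like protein needed to make coenzyme Q, was 19.7-fold higher (BMM 15.7, pOC 309), and Acy1, an aminoacylase, 22.3-fold higher (BMM 16.5, pOC 367). Acy1 was dimmer again in the later arrays, at 99.4 and 56.7, whereas Bdh1 and Coq8a were brighter there than in pOC.

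Signalling genes in this group were the receptor kinase Grk3 (BMM 28.6, pOC 718, 25.1-fold higher), which phosphorylates active G protein-coupled receptors, and Traf1 (BMM 21.7, pOC 336, 15.5-fold higher), an adaptor of TNF receptors. The organic anion transporter Slco4a1 was 17.2-fold higher (BMM 35.4, pOC 609), the sugar transporter family gene Slc45a3 at least 27.1-fold higher (BMM 1.6, pOC 344) and the lipid-binding endosomal gene Plekhf1 14.9-fold higher (BMM 31.7, pOC 473). Kbtbd11, a BTB and kelch protein, read 6.1 in BMM and 1095 in pOC and was at least 86.2-fold higher. Bbs9, a subunit of the complex that sorts cargo to cilia, was 19.2-fold higher (BMM 26.6, pOC 511). Saa3, an acute phase protein, was 16.6-fold higher (BMM 15.9, pOC 265) and far brighter in mOCp, at 3779.6. Slc37a2, a sugar phosphate transporter, read 658 in BMM and 3796 in pOC, 5.77-fold higher, with 5422 and 5977 later. Ifi30, a lysosomal thiol reductase, read 1454 in BMM and 4212 in pOC (2.9-fold higher).

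The genes that were far dimmer in pOC included several that are seldom used as macrophage markers. The secreted ribonucleases Rnase4 (BMM 2263, pOC 39.6, 57.1-fold lower), Ang (BMM 842, pOC 32.1, 26.2-fold lower) and Rnase6 (BMM 172, pOC 8.1, at least 11.9-fold lower) were lower together. Rnase4 and Ang lie side by side in the genome. Ctla2b, which resembles the propeptide of a cysteine protease, read 803 in BMM and 11.6 in pOC and was at least 55.4-fold lower. Rgs18 (BMM 965, pOC 28.2), Rgs1 (BMM 831, pOC 26.1) and Rgs2 (BMM 1405, pOC 154), which switch off G protein signals, were 34.2-fold lower, 31.8-fold lower and 9.13-fold lower. Gpr65, a receptor that senses acid outside the cell, was 32.7-fold lower (BMM 484, pOC 14.8). Dab2, an endocytic adaptor, read 4135 in BMM and 219 in pOC (18.9-fold lower), with further probe sets between -4.94 and -4.29. Fli1, an ETS factor of blood cells, was 18.9-fold lower (BMM 644, pOC 34), and Iqgap2, a scaffold of Rac and Cdc42, 20.7-fold lower (BMM 532, pOC 25.7).

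Gatm, the first enzyme of creatine synthesis, was 19.1-fold lower (BMM 473, pOC 24.8). The myelin protein gene Pmp22 was 12.4-fold lower (BMM 3375, pOC 272) and the perforin-like Mpeg1 of phagosomes 5.96-fold lower (BMM 3845, pOC 645). The folate receptor Folr2 (BMM 919, pOC 40.6), the clotting factor subunit F13a1 (BMM 399, pOC 16.5) and the selenium carrier Selenop (BMM 1871, pOC 135), 3 products of resident tissue macrophages, were 22.6-fold lower, 24.2-fold lower and 13.9-fold lower. Nearly all of these genes stayed dim later: Rnase4 read 118 and 20.1 in mOCp and mOCd, Dab2 194 and 78.5, and Fli1 42.7 and 26.6.

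**Figure D2:**
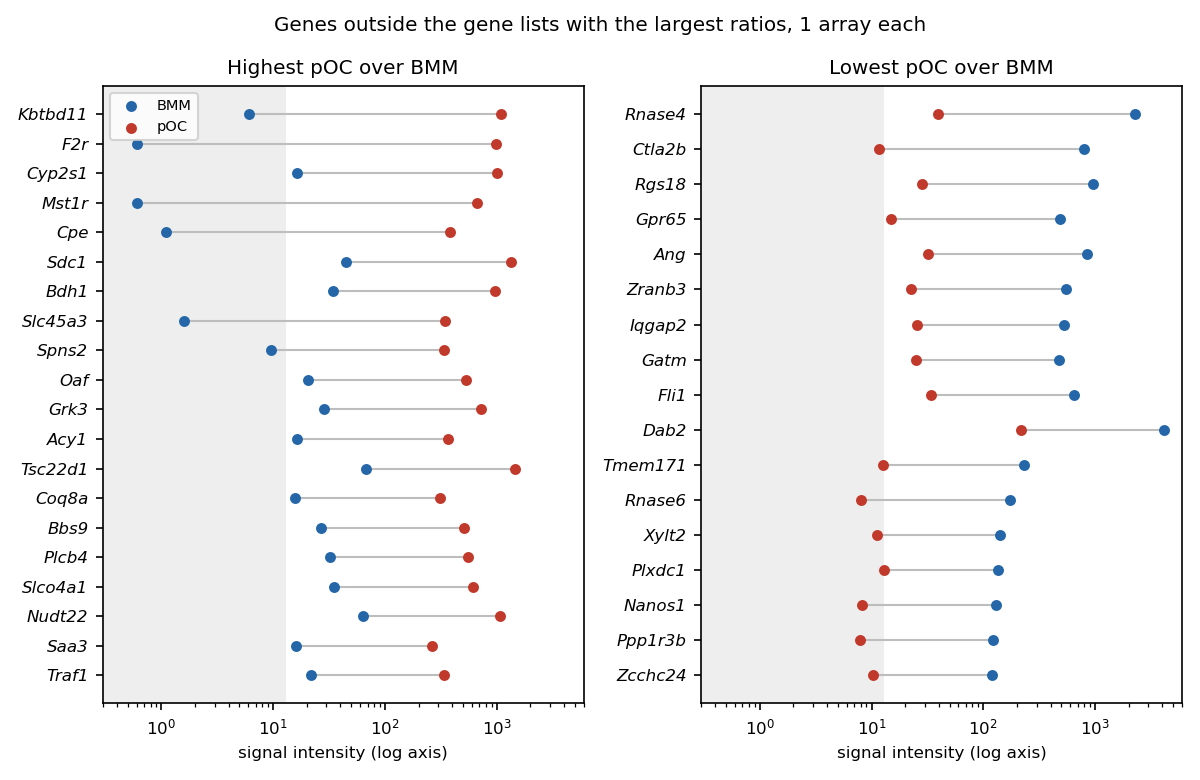
Signal intensity on a log axis in BMM (blue) and pOC (red), 1 array each, for genes outside the gene lists. Their ratios of pOC over BMM were high (left, 20 genes) or low (right, 17 genes). They were taken from the highest and lowest ratios above the floor and the brightest genes at the floor on the other array. Other genes outside the lists with ratios in the same range, such as Acad10 and Pmp22, are not drawn. The grey area lies under the floor of the BMM array at 12.7; Kbtbd11, F2r, Mst1r, Cpe, Slc45a3 and Spns2 have their BMM value there, and Ctla2b, Rnase6 and others their pOC value.

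Mitochondrial genes formed a broad group on the high side. Of 81 eligible genes for respiratory chain subunits, their assembly factors and ATP synthase, 28 were called higher and 1 lower, against the 11.1% and 13.2% of all genes, and their median ratio, over the members measured, was 0.75 on the log2 scale. All 5 complexes were represented. Complex I supplied Ndufb10 (BMM 547, pOC 1723, 3.15-fold higher), Ndufs7 (BMM 699, pOC 1878, 2.69-fold higher) and the assembly factor Ndufaf4 (BMM 370.2, pOC 1114, 3.01-fold higher). Complex II supplied Sdha, Sdhb and Sdhd, of which Sdhd read 726 in BMM and 2015 in pOC (2.77-fold higher). Uqcr10 of complex III read 769 in BMM and 2794 in pOC (3.63-fold higher) and Cyc1, its cytochrome c1, 1383 in BMM and 3447 in pOC (2.49-fold higher). Cox8a of complex IV was 2.31-fold higher (BMM 853, pOC 1966). Of ATP synthase, Atp5md was 4.28-fold higher (BMM 608, pOC 2607) and Atp5g1, a c subunit gene, 2.86-fold higher (BMM 921, pOC 2632). The single gene called lower was Ndufaf7, a methyltransferase for complex I (BMM 111, pOC 47). Shifts of this size lean on the scaling: after scaling to the array medians 16 of the respiratory genes were called higher, and after scaling to the spike-ins 36.

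The supporting machinery differed in the same direction. Of 76 mitochondrial ribosomal protein genes 22 were called higher and 0 lower (median 0.68). They were led by Mrps35 (BMM 131, pOC 699, 5.34-fold higher), Mrps6 (BMM 211, pOC 715, 3.39-fold higher) and Mrps34 (BMM 534, pOC 1762, 3.3-fold higher). By contrast, 0 of 45 eligible cytosolic ribosomal protein genes reached 2-fold either way (median 0.40). Of 33 import and chaperone genes 14 were called higher and 0 lower (median 0.94). Among them were the import pore Tomm40 (BMM 491, pOC 1484, 3.02-fold higher) and the chaperonin Hspd1 (BMM 1971, pOC 4666, 2.37-fold higher). Chchd10, a small protein of the cristae junctions, stood out from them at 18.6-fold higher, with 106 in BMM and 1963 in pOC and a further probe set at a log2 ratio of 3.99. After scaling to the array medians these counts were 13 for the ribosomal and 7 for the import genes.

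In the TCA cycle and pyruvate entry list 12 of 26 were called higher and 0 lower (median 0.91; 6 called higher after scaling to the array medians). The pyruvate dehydrogenase subunits Pdhb (BMM 806, pOC 3219, 4-fold higher), Pdha1 (BMM 567, pOC 1463, 2.58-fold higher) and Dlat (BMM 319, pOC 976, 3.06-fold higher) led it along with Idh3a (BMM 1026, pOC 3522, 3.43-fold higher), a subunit of isocitrate dehydrogenase. Fatty acid oxidation had 4 of 20 higher and 0 lower, and 2 higher after scaling to the array medians or with the mean over probe sets. The 4 as deposited were the thiolase Acaa2 (BMM 217, pOC 713), Hadhb of the trifunctional protein (BMM 522, pOC 1249.5), the isomerase Eci2 (BMM 221, pOC 485) and Etfdh, which passes electrons to coenzyme Q (BMM 207, pOC 418). Glycolysis and the pentose phosphate route showed no such lean, with 2 of 25 higher and 3 lower (median 0.01). Inside it Ldhb, the lactate dehydrogenase chain favoured by oxidative tissues, was 5.64-fold higher (BMM 45.2, pOC 255). The hexokinase Hk3 was 3.18-fold lower (BMM 765, pOC 241) and the glucose transporter Slc2a3 at least 12.9-fold lower (BMM 187, pOC 12.9; 3 further probe sets between -1.94 and -0.02).

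Among regulators of mitochondrial number 6 of 17 were called higher and 0 lower. Besides the coactivator gene Ppargc1b these were its nuclear receptor partner Esrra (BMM 129.8, pOC 319.7, 2.46-fold higher) and the mitochondrial DNA helicase Twnk (BMM 35.3, pOC 119.9, 3.4-fold higher). The remaining ones were the transcription factor of the organelle Tfb2m (BMM 174, pOC 359, 2.06-fold higher), the prohibitin Phb2 (BMM 942, pOC 2692, 2.86-fold higher) and the fusion protein Mfn2 (BMM 170.2, pOC 396, 2.33-fold higher). The mitochondrial deacylases Sirt3 (BMM 28.4, pOC 94, 3.31-fold higher) and Sirt5 (BMM 49.1, pOC 138, 2.81-fold higher) were also higher. The Slc25 carriers did not share the shift as a family, with 2 of 25 higher and 1 lower. The 2 were the glutathione carrier Slc25a39 (BMM 1638, pOC 4545) and the ADP/ATP carrier Slc25a4 (BMM 1471, pOC 3641).

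The promoters of the respiratory genes were searched because many of these genes were higher together. NRF1 is a factor that binds promoters of nuclear genes for mitochondrial proteins, and its site reads GCGCA, 1 free base and GCGC. In windows of 300 bases, from 250 before to 50 after each RefSeq transcription start (assembly GRCm38.p6, both strands searched), these letters were found for 8 of 23 respiratory genes called higher that had a window (34.8%). They were found for 5.19% of all 27025 genes with a window, and for 11.1% and 8.07% of those called higher and lower. Of the higher mitochondrial ribosomal genes 3 of 18 held them (16.7%), and of the higher TCA cycle genes 2 of 11. A match is a description of the letters and not a measured site. Respiratory genes that were not called were not counted as a group. Since NRF1 is known to bind promoters of such genes, the share describes the list and not a cause of the values. Stretches upstream of the starts of 4 such genes are printed 5′ to 3′ on the gene's strand, with the motif in capitals, to show where these letters sit and how Sdha holds them 3 times; the match in Ndufaf4 reads the same on both strands.
Ndufaf4, chr4:24897940-24898009, plus strand: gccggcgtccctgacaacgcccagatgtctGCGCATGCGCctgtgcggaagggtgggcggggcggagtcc
Sdhd, chr9:50603889-50603958, minus strand: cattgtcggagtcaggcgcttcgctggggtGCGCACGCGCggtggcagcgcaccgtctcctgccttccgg
Sdha, chr13:74350241-74350368, minus strand: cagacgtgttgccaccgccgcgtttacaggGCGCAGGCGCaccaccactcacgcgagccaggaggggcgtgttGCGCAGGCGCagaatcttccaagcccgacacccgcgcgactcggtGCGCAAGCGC
Atp5c1, chr2:10080433-10080479, minus strand: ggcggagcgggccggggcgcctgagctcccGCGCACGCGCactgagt

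**Figure D3:**
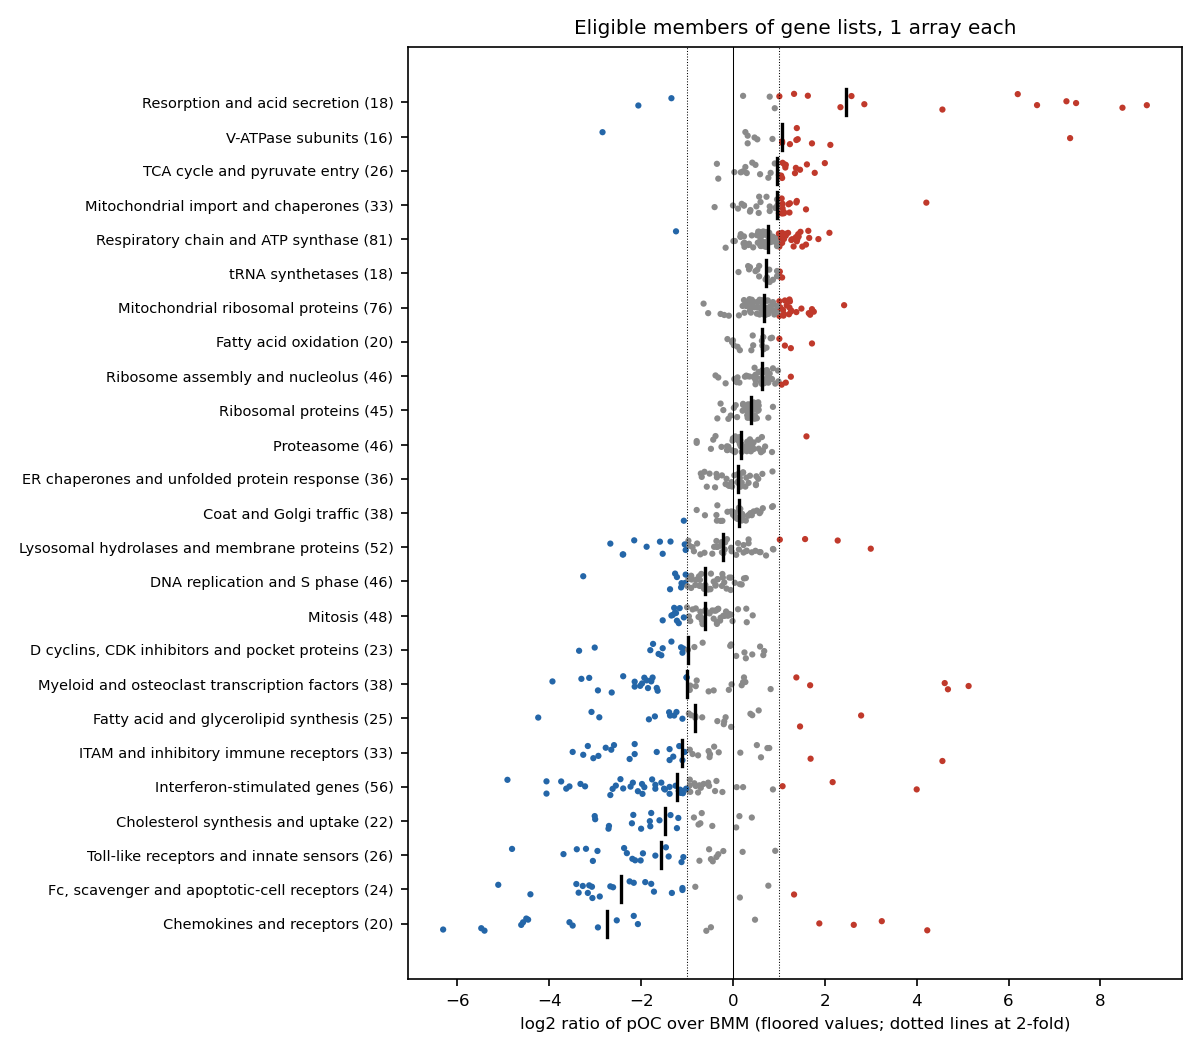
Log2 ratio of pOC over BMM (horizontal axis, floored values, 1 array each) for the eligible members of 25 gene lists, with their number in brackets; each point is 1 gene, coloured red when called higher and blue when called lower, and the black bar is the median of the points shown. Mitochondrial lists sit to the right of 0, with most members short of the dotted 2-fold line. The share past it was still above the 11.1% of all eligible genes, for example 34.6% of respiratory genes and 46.2% of TCA cycle genes. The cholesterol, innate sensor and receptor lists spread far to the left.

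Few genes of the proteasome, of folding, of coat and Golgi traffic and of ribosome assembly reached 2-fold. Of 46 proteasome genes 1 was called higher, the chaperone of base assembly Psmd10 (BMM 264, pOC 799), and 0 lower. Of 36 genes of endoplasmic reticulum folding and stress 0 reached 2-fold (median 0.06), and of 38 coat and Golgi traffic genes only Tmed10, a cargo receptor, did (BMM 1305, pOC 623). All 18 tRNA synthetase genes were eligible and 3 were called higher (16.7%, against 11.1% of all genes). Their median was 0.72, close to that of the respiratory genes, and 0 were called higher after scaling to the array medians. Nucleolar and ribosome assembly genes had 3 of 46 higher (median 0.63), such as Polr1b of RNA polymerase I (BMM 88.2, pOC 211). Genes of amino acid transport and supply were mixed, with 4 of 26 called higher and 5 lower. The glutamine carrier Slc1a5 was 6.24-fold higher (BMM 163, pOC 1018) and asparagine synthetase, Asns, 2.77-fold higher (BMM 229, pOC 634). The large neutral carrier Slc7a8 was 7.08-fold lower (BMM 421, pOC 59.4) and the heavy chain Slc3a2 2.08-fold lower (BMM 1509, pOC 724).

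Transcription factors leaned to the low side. In the list of myeloid and osteoclast factors 20 of 38 were called lower and 5 higher (median -0.80). Those higher, beside Bhlhe40 and Prdm1, were Mitf (BMM 469, pOC 1506, 3.21-fold higher) and its relative Tfec (BMM 185, pOC 479.7, 2.6-fold higher), which drive lysosome and osteoclast genes. Also higher was Zeb1 (BMM 12.3, pOC 326, at least 25.7-fold higher; its further probe set 1.07), a repressor best known from epithelial cells. Lower were factors of haematopoietic identity: Lyl1 (BMM 153, pOC 15.5, 9.86-fold lower), Lmo2 (BMM 469, pOC 75, 6.25-fold lower), Runx1 (BMM 229, pOC 68.1, 3.37-fold lower) and Hhex (BMM 337, pOC 88.4, 3.81-fold lower). Ets2, a target and effector of M-CSF signalling, was 8.74-fold lower (BMM 1450.4, pOC 166), and the C/EBP factors Cebpa (BMM 213, pOC 48.5) and Cebpb (BMM 1045, pOC 303) were 4.4-fold lower and 3.44-fold lower. Rbpj, the DNA-binding partner of Notch, was 3.16-fold lower (BMM 1393, pOC 440.4). All 3 Id genes that were eligible were lower, with Id1 (BMM 195, pOC 37.3) and Id3 (BMM 145, pOC 46.6) at 5.23-fold lower and 3.11-fold lower beside Id2.

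Members of the AP-1 and CREB families split, with 4 of 16 higher and 4 lower. Fosl2 (BMM 194, pOC 2031, 10.5-fold higher), Fos (BMM 935, pOC 3555, 3.8-fold higher) and Junb (BMM 135, pOC 450.1, 3.33-fold higher) were higher along with Jdp2. Maf (BMM 1132, pOC 63.1, 17.9-fold lower), a determinant of resident macrophages, Atf3 (BMM 585, pOC 33.7, 17.4-fold lower), a brake on inflammatory genes, and Crem (BMM 122, pOC 18.3, 6.66-fold lower) were lower. Nfatc2 was 2.29-fold lower (BMM 248, pOC 108) where Nfatc1 was higher, and the calcineurin inhibitor gene Rcan1, itself a target of NFAT, was 3.59-fold higher (BMM 226, pOC 810.2). Of the nuclear receptors Pparg read 88.5 in BMM and 2 in pOC (at least 6.1-fold lower) and the glucocorticoid receptor Nr3c1 348 in BMM and 160.0 in pOC (2.17-fold lower). Rxrb (BMM 109.5, pOC 274) and Nr2f6 (BMM 49.2, pOC 139.6) were 2.5-fold higher and 2.84-fold higher. Chromatin genes differed in single cases rather than as a group (4 of 75 higher, 5 lower). The H3K4 demethylase Kdm5b was 5.04-fold higher (BMM 25.1, pOC 127). The architectural factor Hmga2 was 8.82-fold lower (BMM 423, pOC 47.9) and the deacetylase Hdac9 at least 9.46-fold lower (BMM 137, pOC 6.3).

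In the list of RANK and cytokine signalling adaptors 4 of 27 were called higher and 3 lower, near the shares of all genes, and 20 did not reach 2-fold. Those called higher were Nfkb2, the p100 precursor of the alternative pathway (BMM 58.2, pOC 240.4, 4.13-fold higher), and the deubiquitinase Tnfaip3 that damps the pathway (BMM 177, pOC 596, 3.38-fold higher). The inhibitor Nfkbie (BMM 109, pOC 224, 2.06-fold higher) and the kinase scaffold Ikbkg (BMM 114, pOC 269, 2.35-fold higher) were higher as well. Nfkbiz, the nuclear inhibitor-like protein that secondary inflammatory genes need, was 8.6-fold lower (BMM 141, pOC 16.4). Nearer the receptors, the ITAM adaptor Fcer1g (BMM 3531, pOC 1645, 2.15-fold lower) and the exchange factor Vav3 (BMM 320.0, pOC 137, 2.34-fold lower) were also lower. TNF family genes were 1 of 11 higher and 5 lower. The lower ones included Tnf itself (BMM 242, pOC 44.5, 5.43-fold lower), Tnfsf9 (BMM 184, pOC 26.2, 7-fold lower) and the costimulatory receptor Cd40 (BMM 146, pOC 38.3, 3.8-fold lower). Of 28 eligible immediate early genes and MAPK feedback phosphatases, 5 were called higher and 11 lower (17.9% and 39.3%, against 11.1% and 13.2% of all genes). Dusp4 (BMM 224, pOC 1044, 4.66-fold higher), the suppressor Socs3 (BMM 14.5, pOC 119, 8.21-fold higher) and Spry1 (BMM 2.5, pOC 198, at least 15.6-fold higher) were higher. Dusp1 (BMM 1101, pOC 180.2, 6.11-fold lower), Dusp6 (BMM 922, pOC 296, 3.11-fold lower) and Ier3 (BMM 365, pOC 59.2, 6.16-fold lower) were lower.

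Receptors for antibody, debris and microbes were lower almost throughout. Of 24 eligible genes for Fc, scavenger and apoptotic-cell receptors and their partners, 20 were called lower and 1 higher. The exception was Itgav, which is also the alpha chain of the osteoclast vitronectin receptor (BMM 1593, pOC 3993). The median of the measured members was -1.93. The scavenger receptors Stab1 (BMM 778, pOC 73.3, 10.6-fold lower) and Cd36 (BMM 4779, pOC 466, 10.2-fold lower) were far dimmer, as was the low affinity Fc receptor Fcgr3 (BMM 1719, pOC 178, 9.67-fold lower). The bridging ligand Gas6 (BMM 739.8, pOC 88.4, 8.37-fold lower) and its receptors Mertk (BMM 164, pOC 18.8, 8.73-fold lower) and Axl (BMM 121, pOC 13.1, at least 8.36-fold lower) were lower together. In the complement list 6 of 9 were lower, with the anaphylatoxin receptors C5ar1 (BMM 2374, pOC 219, 10.8-fold lower) and C3ar1 (BMM 3141, pOC 471, 6.67-fold lower) beside the C1q chains, and 1 higher, the membrane inhibitor Cd59a (BMM 175, pOC 351).

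Innate sensors had 17 of 26 lower and 0 higher (median -1.22). Endosomal receptors for RNA were among them, Tlr7 (BMM 443, pOC 42, 10.5-fold lower), Tlr8 (BMM 172, pOC 20.7, 8.3-fold lower) and Tlr13 (BMM 1408, pOC 109, 12.9-fold lower), as were the surface receptors Tlr2 (BMM 675, pOC 131, 5.16-fold lower) and Tlr4 (BMM 439.5, pOC 100.2, 4.39-fold lower). Ly86, the MD-1 partner of a Toll-like receptor relative, was 28.0-fold lower (BMM 1836, pOC 65.5), and the inflammasome sensor Nlrp3 4.04-fold lower (BMM 132, pOC 32.7). Of 33 genes for receptors that signal through ITAM or ITIM motifs 18 were lower and 2 higher. The higher pair was Oscar and Clec4n, which encodes dectin-2 (BMM 62.5, pOC 202, 3.23-fold higher). The lower ones held inhibitory receptors such as Lair1 (BMM 539, pOC 65.4, 8.24-fold lower), Milr1 (BMM 592, pOC 52.5, 11.3-fold lower) and Cd300a (BMM 307, pOC 64.5, 4.76-fold lower). They also held activating ones such as Cd300lb (BMM 947, pOC 216, 4.39-fold lower). Trem2, an activating partner of DAP12, read 1965 in BMM and 288 in pOC on its chosen probe set (6.83-fold lower), but its further probe set gave a log2 ratio of 0.82, so its direction is uncertain. C-type lectins went both ways, with Clec4a2 2.79-fold higher (BMM 527, pOC 1468) and Clec4d 2.9-fold lower (BMM 3832, pOC 1322), and the lectin-like receptor gene Klra17 read 0.5 in BMM and 132 in pOC (at least 10.4-fold higher).

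Interferon-stimulated genes were a large block on the low side, with 35 of 56 called lower and 3 higher (median -1.17). The low side held antiviral effectors such as Ifit1 (BMM 376, pOC 60.9, 6.17-fold lower), Ifit3 (BMM 811, pOC 65.3, 12.4-fold lower) and Oasl2 (BMM 1166, pOC 199, 5.84-fold lower). It also held the RNA sensor Ifih1 (BMM 558, pOC 173, 3.23-fold lower) and the nucleotide kinase Cmpk2 (BMM 551, pOC 55, 10.0-fold lower), which lies beside Rsad2 in the genome. It held the factor Stat2, which carries the type I interferon signal (BMM 210.0, pOC 53.2, 3.95-fold lower), and the deISGylase Usp18, which limits it (BMM 651, pOC 155, 4.21-fold lower). The GTPases of the immunity-related family, Irgm1 (BMM 575, pOC 243, 2.37-fold lower) and Igtp (BMM 335, pOC 129, 2.6-fold lower), were lower as well. The exceptions were the membrane protein Ifitm1 (BMM 12.3, pOC 203, the former under the floor) and the guanylate-binding proteins Gbp7 (BMM 179.6, pOC 807, 4.49-fold higher) and Gbp3 (BMM 100.0, pOC 211, 2.11-fold higher). Another member of that family, Gbp2, was 3.8-fold lower (BMM 122, pOC 32.1).

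The interferon-stimulated response element (ISRE), bound by the STAT2 complex and by IRF factors, reads GAAA, 2 free bases and GAAA, or TTTC, 2 free bases and TTTC when it lies on the other strand. It was found for 15 of the 29 genes of this list called lower that had a promoter window (51.7%). Among all genes with a window the share was 3.99%, among all called lower 8.59% and among all called higher 3.16%. Since the list was built from genes known to answer interferon, the share describes the list and not a cause of the values. Stretches upstream of 5 of them are printed, again 5′ to 3′ on the gene's strand with the motif in capitals; Ifit1, Ifit3 and Irgm1 carry it 2 times, in Irgm1 with the copies overlapping by 4 bases.
Ifit1, chr19:34640755-34640843, plus strand: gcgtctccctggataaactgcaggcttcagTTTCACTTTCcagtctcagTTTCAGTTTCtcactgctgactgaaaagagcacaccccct
Ifit3, chr19:34583343-34583446, plus strand: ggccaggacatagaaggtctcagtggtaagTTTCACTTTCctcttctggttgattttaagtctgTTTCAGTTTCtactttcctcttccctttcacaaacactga
Rsad2, chr12:26456533-26456602, minus strand: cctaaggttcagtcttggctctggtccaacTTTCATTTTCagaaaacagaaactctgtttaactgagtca
Gbp2, chr3:142620574-142620643, plus strand: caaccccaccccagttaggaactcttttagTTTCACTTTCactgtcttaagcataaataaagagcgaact
Irgm1, chr11:48871421-48871480, minus strand: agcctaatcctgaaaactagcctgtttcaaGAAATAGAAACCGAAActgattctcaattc

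Chemokine and chemokine receptor genes were mostly lower. Of 20 eligible 13 were lower and 4 higher. Ligands for monocytes were lower by the widest margins, among them Ccl2 (BMM 5257, pOC 232, 22.7-fold lower), Ccl12 (BMM 2844, pOC 63.7, 44.6-fold lower) and Ccl3 (BMM 1528, pOC 64.5, 23.7-fold lower), as was Ccr2, the receptor of Ccl2 (BMM 227, pOC 20.2, 11.2-fold lower). The receptor gene Ccr1 differed the other way, with 152 in BMM and 2853 in pOC (18.7-fold higher) and then 3962 in mOCp and 4767 in mOCd, and Ccr3 was 3.68-fold higher (BMM 29.7, pOC 109). Cxcl14, a chemokine of resting tissue, was 22.0-fold lower (BMM 374, pOC 17) and the interferon-induced Cxcl10 11.8-fold lower (BMM 1111, pOC 93.9). Cxcl3, a neutrophil attractant, was 9.46-fold higher (BMM 12.9, pOC 122). Among interleukin genes and receptors, Lif read 6 in BMM and 89.4 in pOC (at least 7.04-fold higher) and the shared chain of the GM-CSF and IL-3 receptors, Csf2rb, was 3.19-fold higher (BMM 228, pOC 727). Il18 (BMM 389.9, pOC 35.1, 11.1-fold lower) and Il7r (BMM 1103, pOC 113, 9.77-fold lower) were lower.

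Guidance receptors differed in both directions. In the semaphorin, plexin, ephrin and Notch list 6 of 14 were higher and 3 lower. Nrp2 read 494 in BMM and 2373 in pOC (4.81-fold higher) and Nrp1 2244 in BMM and 279.5 in pOC (8.03-fold lower); both are co-receptors for semaphorins and VEGF. Plxnd1 (BMM 203, pOC 1113, 5.49-fold higher), Plxna2 (BMM 25.8, pOC 98.2, 3.81-fold higher) and Plxna4 (BMM 0.6, pOC 128, at least 10.1-fold higher) were higher and Plxnc1 was lower (BMM 271, pOC 40.9, 6.64-fold lower). The ligand gene Sema7a, whose product binds Plxnc1, was at least 11.5-fold higher (BMM 11.5, pOC 146). Among growth factors Vegfc, the lymphatic VEGF, read 0.2 in BMM and 187 in pOC (at least 14.7-fold higher) and Igf1 3333 in BMM and 185 in pOC (log2 ratio -4.17); Igf1 is a main trophic product of macrophages. Tgfbr1 was 2.89-fold higher (BMM 595, pOC 1716), while the BMP effector Smad1 (BMM 515, pOC 206, 2.51-fold lower) and the receptor kinase Acvrl1 (BMM 120.0, pOC 20.6, 5.83-fold lower) were lower.

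Lipid genes were lower on the synthetic side. Cholesterol synthesis and uptake had 14 of 22 lower and 0 higher (median -1.60), which covered early and late steps. They included Idi1 (BMM 892, pOC 137, 6.52-fold lower), Fdps (BMM 1519, pOC 232, 6.56-fold lower), Sqle (BMM 752, pOC 188, 4-fold lower) and Dhcr7 (BMM 208, pOC 60.4, 3.44-fold lower). The feedback protein Insig1 (BMM 407, pOC 90.5, 4.5-fold lower) and the driver of the pathway, Srebf2 (BMM 265, pOC 116, 2.29-fold lower), were lower too. Efflux and oxysterol genes had 6 of 14 lower and 0 higher. Among them were the lipid carrier Apoe (BMM 1555, pOC 193, 8.07-fold lower) and Mylip, a ligase that removes the LDL receptor (BMM 283, pOC 60.9, 4.65-fold lower). In fatty acid and glycerolipid synthesis 10 of 25 were lower and 2 higher. The desaturases for long polyunsaturated chains, Fads2 (BMM 109, pOC 7.7, at least 7.52-fold lower) and Fads1 (BMM 433, pOC 23, 18.8-fold lower), were lower, although the further probe set of Fads1 gave -0.54. Fasn (BMM 406, pOC 167, 2.44-fold lower) and Scd2 (BMM 1448, pOC 552, 2.62-fold lower) were lower by less. The acyltransferase Lpcat1 (BMM 274, pOC 1894, 6.92-fold higher) and Pcyt1a, the pacing enzyme of phosphatidylcholine synthesis (BMM 209, pOC 575, 2.75-fold higher), were higher, and Lpcat2 was lower (BMM 356, pOC 109.8, 3.24-fold lower).

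In the list of purinergic and lipid mediator genes 5 of 27 were called higher and 14 lower. Alox5ap, needed for leukotriene synthesis (BMM 3772, pOC 766, 4.92-fold lower), the prostaglandin D synthase Hpgds (BMM 276, pOC 26.8, 10.3-fold lower) and the prostaglandin E2 receptor Ptger4 (BMM 273, pOC 32.8, 8.32-fold lower) were lower. So were the nucleotide receptors P2ry6 (BMM 1312, pOC 146, 9.01-fold lower) and P2ry12 (BMM 95.1, pOC 17.3, 5.5-fold lower). The phospholipase Pla2g12a (BMM 23.8, pOC 171, 7.16-fold higher) and the lysophosphatidic acid receptor Lpar1 (BMM 25.5, pOC 106, 4.15-fold higher) were higher.

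Proton pump genes were mostly higher. Of 16 eligible V-ATPase genes 9 were higher and 1 lower. Subunits of both sectors took part, for example Atp6v1a of the catalytic head (BMM 1458, pOC 3865, 2.65-fold higher) and Atp6v0b of the membrane ring (BMM 1550.1, pOC 3669.9, 2.37-fold higher). Of 52 other lysosomal genes 10 were lower and 4 higher (median -0.21). The counts were 8 lower and 6 higher after scaling to the spike-ins, and 14 lower and 3 higher after scaling to the array medians. The median is close to the shift that scaling alone makes, so how far this group leans is not sure. The structural membrane proteins Lamp2 (BMM 2549.5, pOC 695, 3.67-fold lower), Lamp1 (BMM 2957, pOC 1428, 2.07-fold lower) and Scarb2 (BMM 534, pOC 84, 6.36-fold lower) and the proteases Lgmn (BMM 2359, pOC 450.0, 5.24-fold lower) and Ctsc (BMM 4034, pOC 911, 4.43-fold lower) were lower. Arylsulfatase B, Arsb, which degrades dermatan and chondroitin sulfate, was 8.02-fold higher (BMM 249.9, pOC 2003), and acid sphingomyelinase, Smpd1, 4.84-fold higher (BMM 149, pOC 721). Autophagy genes were nearly even, with 1 of 23 higher and 1 lower. Among Rab GTPases, Rab38, which serves lysosome-related organelles (BMM 24.1, pOC 311, 12.9-fold higher), and Rab34 (BMM 111, pOC 531, 4.79-fold higher) were higher, and Rab7b (BMM 1221, pOC 178, 6.86-fold lower) and Rab8b (BMM 2856, pOC 508, 5.63-fold lower) lower. Snx10, a sorting nexin that mutations link to osteopetrosis, was 5.99-fold higher (BMM 629, pOC 3767), but -0.04 on its further probe set.

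Mineral and metal transporter genes differed one by one, with 9 of 39 higher and 6 lower. Xpr1, the phosphate exporter, read 139 in BMM and 1546 in pOC (11.2-fold higher), and Ank, which exports pyrophosphate or ATP and so limits mineral growth, 364 in BMM and 2132 in pOC (5.85-fold higher). The phosphate importer Slc20a1 was 2.03-fold lower (BMM 609, pOC 301). Among iron genes the transferrin receptor Tfrc was 3.55-fold higher (BMM 957, pOC 3398) and the endosomal importer Slc11a2 2.05-fold higher (BMM 122.6, pOC 251.3). The exporter ferroportin, Slc40a1, was 7.5-fold lower (BMM 382, pOC 50.9). The phagosomal transporter Slc11a1 was 2.04-fold lower (BMM 1718, pOC 842) and haem oxygenase, Hmox1, 3.02-fold lower (BMM 1192, pOC 395). The metallothionein Mt3 read 9.2 in BMM and 372 in pOC (at least 29.3-fold higher) and then 3979 in mOCp and 4562 in mOCd. The bicarbonate exchanger Slc4a2 was 5.05-fold higher (BMM 234, pOC 1183), the sodium pump chain Atp1b1 at least 10.4-fold higher (BMM 0.3, pOC 133) and Orai2, a pore of store-operated calcium entry, 5.66-fold higher (BMM 42.9, pOC 243). The copper pump Atp7a was 4.26-fold lower (BMM 609.5, pOC 143).

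In the actin and podosome list 10 of 56 were higher and 11 lower. Of focal adhesion proteins, Pxn (BMM 860.3, pOC 1972, 2.29-fold higher), Vcl (BMM 258, pOC 575, 2.23-fold higher) and Actn1 (BMM 794, pOC 1759, 2.21-fold higher) were modestly higher. Among the members called lower were coronin, Coro1a (BMM 3612, pOC 504, 7.17-fold lower), Evl (BMM 397, pOC 36, log2 ratio -3.46), the focal adhesion protein zyxin, Zyx (BMM 232, pOC 57.7, 4.02-fold lower), and the actin monomer regulator Cap1 (BMM 1565, pOC 435, 3.6-fold lower). Dock5, a Rac exchange factor that osteoclasts need for their sealing zone, was 8.06-fold higher (BMM 55.1, pOC 444), with Srgap3 (BMM 25.8, pOC 305, 11.8-fold higher) and Tiam2 (BMM 12, pOC 109.5, at least 8.62-fold higher). Dock2, the Rac factor of migrating leukocytes (BMM 758, pOC 126, 6.01-fold lower), Dock4 (BMM 199, pOC 23.5, 8.48-fold lower) and Fgd4, a Cdc42 factor (BMM 437, pOC 19.6, 22.3-fold lower), were lower. Fgd6, a relative of Fgd4, was 2.42-fold higher (BMM 64.1, pOC 155).

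Motor and tubulin genes differed in both directions within families. The class I myosin Myo1d read 26.8 in BMM and 700.3 in pOC (26.1-fold higher; its further probe set 0.77), Myo10, a motor of filopodia, 41.8 in BMM and 364 in pOC (8.7-fold higher) and Myo1f 735 in BMM and 310.4 in pOC (2.37-fold lower). The beta tubulin Tubb6 was 3.61-fold higher (BMM 1124, pOC 4055; its further probe set 0.56), whereas Tubb2a (BMM 1645, pOC 135) and the alpha tubulin Tuba1a (BMM 2201, pOC 330.2) were 12.2-fold lower and 6.67-fold lower. Tubulin genes are close copies of each other, so their probe sets may share transcripts. Integrin chains followed suit: Itgb3 was at least 7.25-fold higher (BMM 1, pOC 92.1) and Itgb7 3.22-fold higher (BMM 63.7, pOC 205). Itgb5 (BMM 663, pOC 109, 6.09-fold lower), Itga6 (BMM 1806, pOC 288, 6.27-fold lower) and Itgal (BMM 163, pOC 48.6, 3.35-fold lower) were lower. Outside the cell, the collagenase Mmp13 (BMM 133, pOC 6.7, at least 9.19-fold lower) and the plasminogen activator Plau (BMM 161, pOC 20.5, 7.85-fold lower) with its receptor Plaur (BMM 586, pOC 269, 2.18-fold lower) were lower. The protease inhibitors Slpi (BMM 120.3, pOC 921, 7.65-fold higher) and Serpinb8 (BMM 74, pOC 493, 6.66-fold higher) were higher. Slpi is also a product of neutrophils, whose markers Lcn2, S100a8 and S100a9 were higher as given above.

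**Figure D4:**
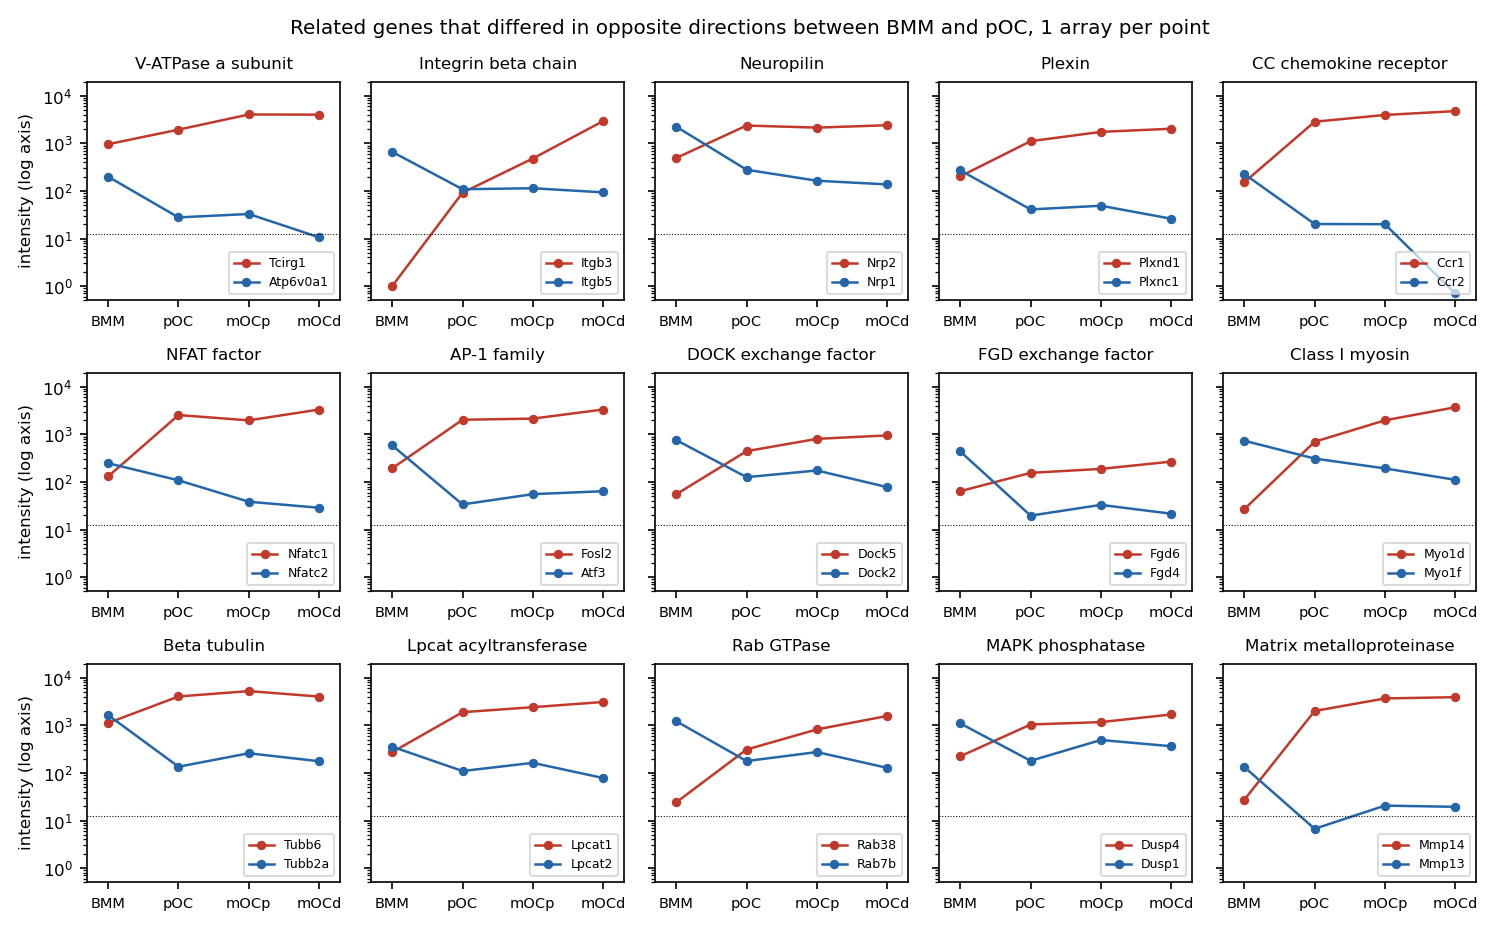
Intensity on a log axis in BMM, pOC, mOCp and mOCd, 1 array per point, for 15 pairs of related genes chosen after their values were seen, with the member called higher in pOC in red, the member called lower in blue, and the dotted line at the BMM floor of 12.7. Levels of different probe sets are not comparable, so only the course of each line is to be read and the step between BMM and pOC is what the pairs were chosen for; the lines of Itgb3 and Myo1d are higher still in mOCp and mOCd.

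Genes of division were lower by small amounts, apart from a few control genes. Of 48 mitosis genes 10 were called lower and 0 higher (median -0.61), with Ndc80 of the kinetochore (BMM 239, pOC 82.4, 2.89-fold lower) and the cytokinesis factor Ect2 (BMM 519, pOC 214, 2.42-fold lower) among them. Of 46 replication genes 9 were lower and 0 higher (median -0.54); this count was 16 after scaling to the array medians and 4 after scaling to the spike-ins. The upstream regulators were further apart: Ccnd1, the cyclin that M-CSF induces, read 3219.9 in BMM and 316 in pOC (10.2-fold lower), Ccnd2 210.1 in BMM and 26 in pOC (8.08-fold lower) and E2f2 173 in BMM and 18.1 in pOC (9.57-fold lower). The list of D cyclins, CDK inhibitors and pocket proteins had 11 of 23 lower and 0 higher. It held brakes on the cycle as well as drivers, such as the pocket proteins Rb1 (BMM 406, pOC 141, 2.88-fold lower) and Rbl1 (BMM 743, pOC 213, 3.48-fold lower) and the inhibitor genes Cdkn2d (BMM 463, pOC 157, 2.95-fold lower) and Cdkn1a (BMM 1379.9, pOC 645, 2.14-fold lower). Survival genes were lower in 6 of 23 cases and higher in 2. These counts depended on the processing: 2 lower and 0 higher with the mean over probe sets, 4 and 3 after scaling to the spike-ins, and 7 and 1 after scaling to the array medians. Both the protective Bcl2 (BMM 146, pOC 32.1, 4.55-fold lower) and Bcl2l1 (BMM 259, pOC 58.6, 4.42-fold lower) and the death-promoting Bid (BMM 594, pOC 199.9, 2.97-fold lower) were lower.

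In the heat shock and antioxidant list 7 of 34 were called higher and 6 lower, which became 4 and 10 after scaling to the array medians. Ncf1, the p47 subunit of the phagocyte oxidase, was 8.08-fold lower (BMM 1266, pOC 157) and its catalytic chain Cybb 2.79-fold lower (BMM 2449.8, pOC 877). The subunit gene Ncf4 was 2.12-fold higher (BMM 629, pOC 1331). Higher in this list were the glutathione synthetase Gss (BMM 71.5, pOC 255, 3.56-fold higher), the reductase Gsr (BMM 421, pOC 1053, 2.5-fold higher) and the transferases Gstp1 (BMM 279, pOC 842, 3.02-fold higher) and Gsto1 (BMM 532, pOC 1585, 2.98-fold higher). So were the mitochondrial protectors Sod2 (BMM 857, pOC 1771, 2.06-fold higher) and Prdx3 (BMM 816, pOC 1738, 2.13-fold higher). Nfe2l2, which encodes the antioxidant regulator NRF2, was 2.15-fold lower (BMM 1063, pOC 495) and its inhibitor Keap1 2.26-fold lower (BMM 200.4, pOC 88.7).

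With no replicate array, the agreement of probe sets for the same gene is the available guide to measurement error. Their log2 ratios differed by an SD of 0.415 per probe set. Of 1764 genes called, 1022 had a further probe set above the floor, and for 966 of these (94.5%) the average further ratio had the same sign. For 8 genes a further probe set gave at least 2-fold the other way: Acad10, Arhgap12, Cep85, Ero1b, Fnbp1, Lrch3, Tardbp and Usp25. Among the genes named singly, a further probe set had the opposite sign for Crem, Elf1, Hadhb, Ighm, Kdm5b, Lasp1, Nfatc2, Rab8b, Rgs2, Snx10 and Trem2. For Ccnd2, Dock2, Dock4, Fgd4, Pdhb, Rbl1, Runx1, S1pr2, Sdhd and Tiam2, among others, 1 further probe set stayed within 0.5 on the log2 scale. Near the threshold the call is a matter of small differences. Just inside 2-fold lay the co-chaperonin Hspe1 (BMM 1505, pOC 3011), the ketone body enzyme Oxct1 (BMM 1055, pOC 2110.0) and Eif2b1 (BMM 255, pOC 511) on the high side, and Elf1 (BMM 509, pOC 255), Rraga (BMM 487, pOC 244) and Cryz (BMM 106, pOC 52.8) on the low side. Just outside lay Lasp1 (BMM 1046, pOC 2091), Zfp335 (BMM 85.3, pOC 171) and Ccdc91 (BMM 84.5, pOC 169), and Orai1 (BMM 318, pOC 159), Nuf2 (BMM 385, pOC 193) and Rnf13 (BMM 1026, pOC 514). Genes called between 2-fold and 4-fold, 580 higher and 612 lower, make up most of the calls, and they carry the mitochondrial, replication and mitosis counts above.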

How the data were processed

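The authors deposited 1 table of linear intensity values for all arrays, and the submitters' processing notes list MAS5, with no version. Every array had a trimmed mean of 100.0 after removal of 2% at each end, so the authors' scaling hides differences in total mRNA. The platform annotation gave exactly 1 symbol to 34945 of 45101 probe sets, and 34741 of them matched RefSeq by Entrez identifier. Each of 18193 genes was represented by its probe set of highest mean log2 floored intensity over 4 arrays. Values were floored at the 50th percentile of each array, and calls needed a ratio of 2 and the 75th percentile. With 1 array per group no test was possible, and the number of arrays limits precision.

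Gene lists covering osteoclast and macrophage functions, metabolism, organelles, signalling, cytoskeleton and the cell cycle, and markers of other cells, are described by counts and medians. Genes named singly were list members, the 30 highest and 30 lowest ratios above the floor, the 15 brightest at the floor on the other array, the brightest 15 of each array, the 15 largest intensity differences each way, genes with opposite probe sets, and those nearest 2-fold. The members and lists were chosen with earlier results of these data known. Clone names (33 of 1764 calls) were counted and not named. RefSeq promoter windows were searched for 8 motifs, of which those for NRF1 and ISRE are described above. The others are given as shares of genes called higher, called lower and all with a window. These were 2.56%, 4.43% and 4.31% for the M-box and 9.49%, 9.64% and 8.97% for AP-1. They were 3.16%, 1.95% and 2.03% for CRE and 1.36%, 1.95% and 1.44% for SRE. E-box CACGTG had 12.5%, 10.4% and 8.09%, and CHR 11.1%, 17.6% and 20.2%. Of list genes called lower, 1 of 10 for cholesterol held SRE and 6 of 8 for mitosis held CHR. The alternatives were other floors, brightness limits, scalings and probe set choices. The calling step was run on simulated data with planted 4-fold differences in bright genes and less noise than the probe-set disagreement. That run does not gauge the calls between 2-fold and 4-fold. Python 3.11.15, numpy 2.4.6, pandas 2.3.3 and matplotlib 3.10.9 were used.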

Additional observations from a re-analysis of the deposited data

How the results depend on the processing

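The total counts of genes called kept within 1.5 times under all 9 alternatives, from 581 to 1197 higher and from 666 to 1297 lower. Scaling moved their split: 32.6% of calls were higher after scaling to the array medians and 56.7% after scaling to the spike-ins, against 45.9% as deposited. Of the 1764 calls, 1544 were kept under the first, 1598 under the second and 1211 with the mean over probe sets, where 41 changed sign. Of the log2 ratios of single genes compared under these alternatives, 181 moved by 0.415 or more, 7 changed sign and 2957 stayed closer. With the mean over probe sets the log2 ratio turned to 0.03 for Arhgap12, -0.10 for Ero1b, 0.58 for Lrch3, 0.86 for Trem2 and 0.04 for Usp25. Without suffixed probe sets (_a_at, _s_at or _x_at) it turned to -1.14 for Tardbp and 0.83 for Trem2. The counts for single lists were less steady: 164 moved by more than 1.5 times or to or from 0, and 1132 did not. For example, 17 innate sensors called lower became 11 with the brightness limit at the 85th percentile. With the mean over probe sets, 14 cholesterol genes called lower became 9 and 11 D cyclin and CDK inhibitor genes 7. In that setting 5 Rab GTPase genes called lower became 1 and 8 growth factor genes 4. Fewer genes were eligible there (5206 against 7256). No paired analysis was possible because each group had 1 array. Without replicates, differences within the probe-set disagreement of 0.415 cannot be separated from measurement error. That value is a single SD, so a difference just above it is not separated from error either. The spread between animals, cultures and arrays is unknown.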

Other observations

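Antigen presentation genes were called lower more often than higher, as were all eligible genes (13.2% lower and 11.1% higher). The median log2 ratio of measured members was -0.62 for the class I list and 0.07 for the class II and costimulation list. Of 13 eligible genes for MHC class I and peptide loading 4 were called lower and 0 higher. These were the transactivator Nlrc5 (BMM 176, pOC 45.2, 3.89-fold lower), the trimming peptidase Erap1 (BMM 270.4, pOC 104, 2.6-fold lower) and the nonclassical H2-M3 (BMM 353, pOC 105, 3.38-fold lower) and H2-T24 (BMM 129, pOC 54.5, 2.37-fold lower). In the class II and costimulation list 1 of 9 was higher, H2-Eb1 (BMM 47.8, pOC 99.5, 2.08-fold higher), and 3 were lower, among them the costimulatory ligand Icosl (BMM 116, pOC 12.1, at least 8.02-fold lower).

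Genes induced by low oxygen were 2 of 12 higher and 0 lower; beside Bhlhe40 this was the lipid droplet protein Hilpda (BMM 39.1, pOC 182, 4.65-fold higher). Of 62 genes for membrane fusion and tethering 1 was higher, the tether Vps39 (BMM 109, pOC 242, 2.23-fold higher), and 2 were lower, the syntaxins Stx3 (BMM 348, pOC 82.1, 4.24-fold lower) and Stx2 (BMM 241, pOC 72.9, 3.31-fold lower). In the list of arginase, polyamine and polarization genes 1 of 14 was higher, spermidine synthase, Srm (BMM 751, pOC 1695, 2.26-fold higher), and 7 were lower. The latter were the polyamine acetyltransferase Sat1 (BMM 1348, pOC 545, 2.47-fold lower), the mannose receptor Mrc1 (BMM 770.2, pOC 36.3, 21.2-fold lower), and Apoe, F13a1, Folr2, Selenop and Trem2 with the values given above. The direction of Trem2 is uncertain, as its further probe set went the other way. Without suffixed probe sets 0 genes of this list were called higher and 3 lower. Among matrix genes Col27a1, a fibrillar collagen of cartilage, read 9.4 in BMM and 141 in pOC (at least 11.1-fold higher) and the lysyl hydroxylase Plod3 234 in BMM and 476 in pOC (2.04-fold higher).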
